A study of Mus musculus with 2 samples.

Results

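Transcripts of 10 genes of the Hippo pathway and the TEAD family were measured in single mouse embryos: the coactivators Yap1 and Wwtr1 (which encodes TAZ), the transcription factors Tead1, Tead2 and Tead4, the kinases Lats1 and Lats2, the angiomotins Amot and Amotl2, and Nf2, which encodes Merlin. They were chosen by name as Hippo pathway genes of trophectoderm fate, and all 10 were found among the 52366 genes of the count table. In 2CB and 4CB embryos, Tead2 was 4.35-fold higher than in 1C and 8CB embryos, Amotl2 was 2.30-fold higher and Nf2 1.70-fold lower. Tead1 was 1.47-fold higher, a call that was lost without 2CB embryo 3, without 4CB embryo 2 or when no filter on low counts was used. This comparison is also that of the library pools, and the pool and the kinds of embryo cannot be told apart in it. Yap1, Wwtr1, Tead4, Lats1 and Amot did not pass the test in this comparison, and Lats2 had too few counts to enter it.

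The embryos were 24 pseudoblastocysts, 6 of each of 4 kinds, all from B6D2F1 oocytes fertilised in vitro with ICR sperm. 1C embryos grew from zygotes whose zona pellucida was removed with Actinase E at 5 hpi (hours post insemination), and 2CB, 4CB and 8CB embryos grew from single blastomeres that were separated from zona-free embryos at the 2-cell stage (24 hpi), the 4-cell stage (48 hpi) and the 8-cell stage (48 hpi). Each was cultured alone and collected at 96 hpi once it had a cavity, with no check for an inner cell mass (ICM), so a pseudoblastocyst may hold trophectoderm only. Libraries were made with CEL-Seq2, which captures polyadenylated RNA, counts 1 tag near the 3′ end of a transcript and marks it with a unique molecular identifier (UMI), and they formed 2 library pools with 12 embryos in each, 1C together with 8CB and 2CB together with 4CB. No label says whether embryos of one kind came from separate parental embryos or females, so p-values measure the spread between these embryos.

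In the mouse embryo, cells on the outside become polarised and switch Hippo signalling off. YAP and TAZ then enter the nucleus, bind TEAD4 and switch on trophectoderm genes such as Cdx2 and Gata3. In cells on the inside, Merlin and angiomotin at cell junctions switch on the LATS kinases, which phosphorylate YAP and keep it in the cytoplasm, and these cells form the ICM. The present data give transcript levels, and neither the place nor the phosphorylation of the proteins was measured. In whole embryos, fewer cells of a type and less RNA per cell cannot be told apart.

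TEAD proteins bind the hexamer GGAATG, which reads as CATTCC on the other strand, and Yap1, Wwtr1 and Amotl2 carry it in the 250 bases before a RefSeq transcription start. Amotl2 passed the test of 2CB with 4CB against 1C with 8CB, and Yap1 and Wwtr1, with the same hexamer, did not. A part of the hexamer in these outcomes was not tested. The stretches of 30 bases around the matches are given here with the hexamer in capitals. They are from RefSeq promoter windows of GRCm38.p6, at chr9:8004720-8004749 (minus strand) for Yap1, chr3:57576029-57576058 (minus strand) for Wwtr1 and chr9:102717727-102717756 (plus strand) for Amotl2. The first 2 lie upstream of the annotated gene, and the Amotl2 stretch lies in the untranslated first exon of another of its GENCODE M21 transcripts.
Yap1: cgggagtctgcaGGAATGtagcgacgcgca
Wwtr1: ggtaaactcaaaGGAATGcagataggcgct
Amotl2: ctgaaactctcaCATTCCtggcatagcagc
Tead2, the member with the largest difference, had no match in its window. The 211 bases of that window that lie before the first annotated base of the gene, chr7:45215542-45215752 (plus strand), are shown for comparison.
Tead2: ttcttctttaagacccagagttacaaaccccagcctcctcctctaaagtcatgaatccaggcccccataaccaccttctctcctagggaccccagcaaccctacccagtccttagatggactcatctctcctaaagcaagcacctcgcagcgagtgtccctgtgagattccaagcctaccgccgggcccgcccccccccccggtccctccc
Of the 10 members, 8 had at least 1 window and 3 of these held the hexamer on either strand, in 4 of their 11 windows. Over all 32851 windows the share was 12.6%. The 4 windows include overlapping windows of Wwtr1 that hold the same match. A match describes the letters of the window and is not evidence of binding.

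Depth differed between embryos. The 1C libraries held 123594 to 368348 UMIs (median 244312) and the 8CB libraries 70941 to 356749 (median 313283), against 332867 to 1507471 (median 519932) for 2CB and 132725 to 1130360 (median 216325) for 4CB. The largest count of 1 gene in an embryo was 53029, and how far duplicate reads were merged beyond a shared UMI is not given in the sources used here, so a count called a UMI here may not be 1 molecule. Levels are therefore given as CPM, here UMIs per 1000000 UMIs of the 5940 genes tested, scaled with edgeR's TMM factors, and are not divided by transcript length. On the first principal component of these genes, 1C embryos 4 and 5, at -29.0 and -22.2, were the 1C and 8CB embryos nearest to the 2CB and 4CB embryos, which lay between 39.6 and 54.1, and the other 10 lay between -62.3 and -35.5. Below, a difference across the pools is that of 2CB with 4CB relative to 1C with 8CB. The comparisons of 8CB with 1C and of 4CB with 2CB each lie within 1 pool.

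The first comparison asked whether the members' transcripts differed among the 4 kinds of embryo. Of the 9 members tested, 3 passed an F test of edgeR's quasi-likelihood fit, with p-values adjusted after Benjamini and Hochberg and a threshold of 0.1: Tead2 (adjusted p = 7.33e-05), Amotl2 (0.00857) and Nf2 (0.0524). Nf2 did not pass this F test with no filter on low counts (adjusted p = 0.181), with a replicate block (0.107) or at a threshold of 0.05. It also did not pass after thinning to equal depth with the genes that passed at full depth kept (0.180). Over all genes tested, 47.1% passed. Across the pools, 4 of 9 members passed, beside 55.3% of all genes. Tead1, Tead2 and Amotl2 were higher in 2CB and 4CB, a direction taken by 31.3% of all genes, and Nf2 was lower, as were 24% of all genes. The share of members called was not above that of genes in general, and the median log2 fold change was -0.05 over the 9 members and 0.12 over all genes.

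**Figure D1:**
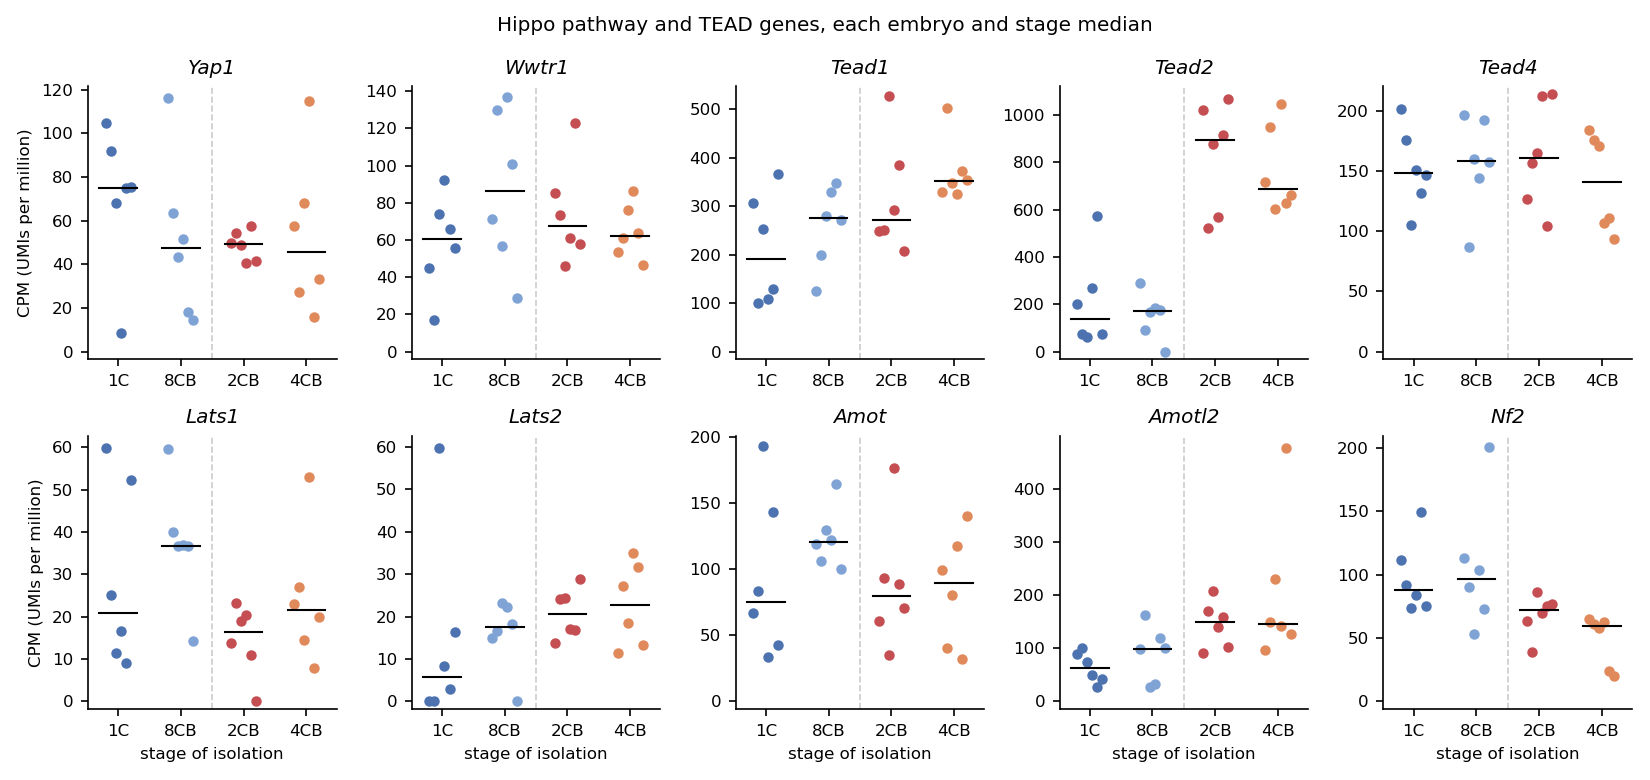
CPM (scaled UMIs, linear axes from 0) of the 10 genes in each of the 24 embryos, in the order 1C, 8CB, 2CB, 4CB. Points are embryos, black bars are medians of 6, and the dashed line parts the 2 library pools. Tead2 lies at 523.7 CPM or above in all 2CB and 4CB embryos, and at 289.1 CPM or below in all 1C and 8CB embryos but 1C embryo 5.

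Yap1 and Wwtr1, whose proteins carry the Hippo signal into the nucleus, were detected in every embryo and did not divide by pool. Yap1 had 8.37 to 104.6 CPM in 1C (median 75.0), 14.3 to 116.2 in 8CB (median 47.5), 40.8 to 57.5 in 2CB (median 49.1) and 15.9 to 114.9 in 4CB (median 45.5). The ranges overlapped throughout, and the 2CB embryos lay inside the range of each other stage. Its log2 fold change across the pools was -0.24 (95% interval -0.87 to 0.39, adjusted p = 0.540).

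Wwtr1 had 16.7 to 92.1 CPM in 1C (median 60.7), 28.7 to 136.8 in 8CB (median 86.1), 45.9 to 122.9 in 2CB (median 67.4) and 46.7 to 86.2 in 4CB (median 62.3). Here too each stage overlapped each other one. Its log2 fold change was -0.05 (-0.56 to 0.46, adjusted p = 0.884), so that a difference of more than about 0.56 on the log2 scale in either direction lies outside the interval. Between 8CB and 1C it was 0.61 (-0.13 to 1.34, adjusted p = 0.617), with 3 8CB embryos above all 1C embryos and the other 3 among them. Of the UMIs of both coactivators together, Wwtr1 held a median of 44.7% in 1C and 67.0% in 8CB, against 59.0% for 2CB and 55.6% for 4CB, with embryos between 15.4% and 91.7% in 1C alone.

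Tead2 encodes a TEAD factor that is known from early mouse development and overlaps in function with TEAD1. It had 62.5 to 571.9 CPM in 1C (median 138.5), 0 to 289.1 in 8CB (median 170.3), 523.7 to 1069 in 2CB (median 896.4) and 603.1 to 1048 in 4CB (median 689.4). Of the 12 1C and 8CB embryos, 11 lay below every 2CB and 4CB embryo. The exception, 1C embryo 5, had 191 of the 304 Tead2 UMIs of the 1C embryos and lay above 2 of the 2CB embryos, at 523.7 and 571.1 CPM. The 8CB embryo 6, the shallowest library with 70941 UMIs, had 0 Tead2 UMIs, which allows up to 43.0 CPM (3 UMIs, counting error only).

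Across the pools the log2 fold change of Tead2 was 2.12 (standard error 0.33, 95% interval 1.45 to 2.79, adjusted p = 4.64e-06 in edgeR's quasi-likelihood test). Without 1C embryos 4 and 5 it was 2.63. Those embryos had the highest Tead2 levels of 1C, 267.8 and 571.9 CPM, so leaving them out had to raise the difference. Within the pools Tead2 did not pass. For 8CB against 1C it was -0.41 (95% interval -1.36 to 0.54, adjusted p = 0.821), and leaving out 1C embryo 5 turned it to 0.29. For 4CB against 2CB it was -0.11 (-0.99 to 0.78, adjusted p = 1.00). The embryo with the high Tead2 level had a summed trophectoderm marker level of 1389 CPM, the third highest of the 1C embryos, and the highest summed primitive endoderm marker level of them, 1572 CPM. The part of these cells in its Tead2 level was not tested.

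Tead1, a broadly expressed TEAD gene, had 100.5 to 366.3 CPM in 1C (median 190.8), 125.2 to 347.9 in 8CB (median 276.1), 208.1 to 526.5 in 2CB (median 271.4) and 324.1 to 501.9 in 4CB (median 350.9). The pools overlapped widely: 4 of 12 2CB and 4CB embryos lay above all 1C and 8CB embryos, and 5 of 12 1C and 8CB embryos lay below all 2CB and 4CB embryos. Across the pools its log2 fold change was 0.55 (standard error 0.22, 95% interval 0.10 to 1.00, adjusted p = 0.0381). The call was lost without 1C embryos 4 and 5 (0.38, adjusted p = 0.155), without 2CB embryo 3 (0.40, adjusted p = 0.142), without 4CB embryo 2 (0.43, adjusted p = 0.116) and with no filter on low counts (0.52, adjusted p = 0.115).

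Tead4, whose product is required in mice for the trophectoderm to form, had 105.1 to 201.7 CPM in 1C (median 148.9), 86.7 to 196.7 in 8CB (median 158.8), 104.1 to 214.5 in 2CB (median 160.9) and 93.5 to 184.2 in 4CB (median 141.0). The medians lay close together and all stages overlapped. Its log2 fold change was -0.01 with the narrowest interval of the 9 members, -0.40 to 0.38 (adjusted p = 0.968).

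Within each embryo, the make-up of the TEAD family differed between the pools. Counts of different genes were compared as shares of the same embryo's TEAD UMIs, since CEL-Seq2 counts 1 tag per transcript whatever its length. Tead2 held 51.8% to 72.04% of these UMIs in 2CB and 4CB embryos, the largest share in each of the 12. In 1C and 8CB embryos it held 0% to 68.7%, with a median of 26.02%, and was the largest share in 3 of the 12. Tead1 held a median of 47.4% in 1C and 8CB and 27.0% in 2CB and 4CB, and Tead4 held 26.6% and 10.6%. Tead3, named here after its values were seen, had 9 UMIs in 1C and 8CB and 87 in 2CB and 4CB, at most 3.71% of an embryo's TEAD UMIs, and did not pass the filter on low counts. In the fit with no filter, its log2 fold change across the pools was 2.30 (0.96 to 3.63, adjusted p = 0.00603). These shares are given as a description with no test, and a rise of one gene lowers the shares of the others.

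**Figure D2:**
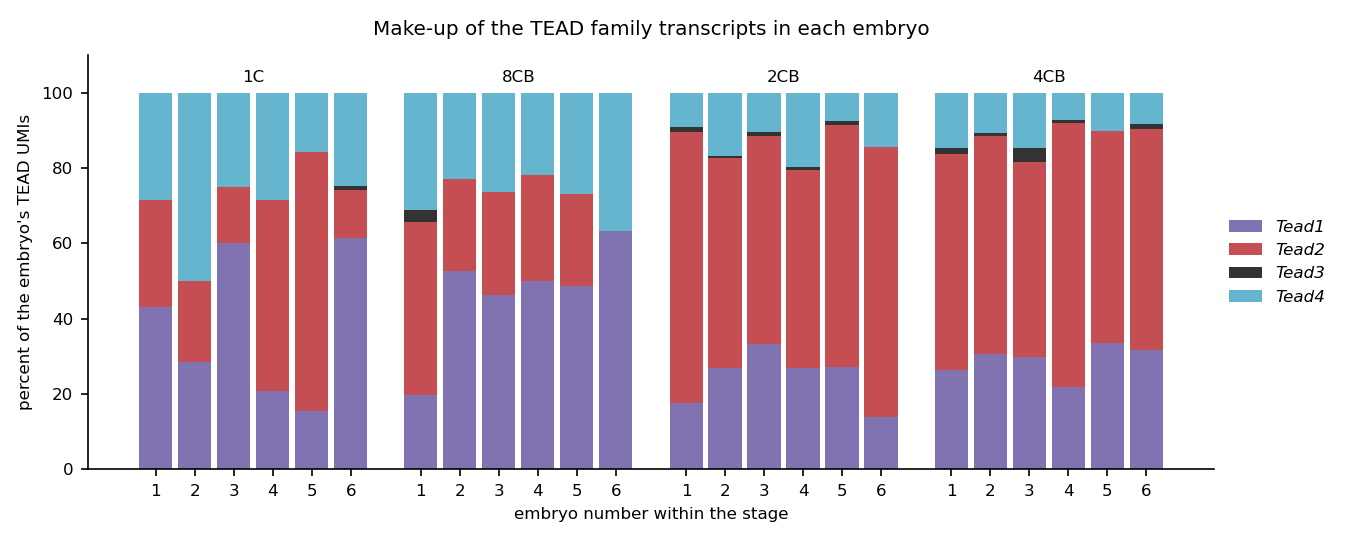
Share (percent) of each embryo's TEAD UMIs that came from Tead1, Tead2, Tead3 and Tead4, stacked from the bottom in that order, for the 6 embryos of each stage. Tead2 is the largest part in all 12 2CB and 4CB embryos, and in 1C embryos 4 and 5 and 8CB embryo 1.

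Lats1 and Lats2 encode the kinases that phosphorylate YAP and TAZ, and both were scarce, with 242 and 198 UMIs over all 24 embryos. Lats1 had 8.98 to 59.7 CPM in 1C (median 20.9), 14.3 to 59.6 in 8CB (median 36.8), 0 to 23.4 in 2CB (median 16.3) and 7.95 to 53.0 in 4CB (median 21.5). The ranges overlapped, with 2 of 12 1C and 8CB embryos above all 2CB and 4CB embryos. In 2CB embryo 6 no Lats1 UMI was found, which allows up to 9.60 CPM. It differed across the pools by a log2 fold change of -0.72 (standard error 0.38, 95% interval -1.50 to 0.05, adjusted p = 0.117) and did not pass. It passed without 1C embryos 4 and 5 (-0.94, adjusted p = 0.0475), whose levels of 16.7 and 8.98 CPM lay below the 1C median. It also passed in 8 of the 24 fits that left out 1 embryo. When every embryo was thinned to the same depth and the genes that passed at full depth were kept, it was at -0.060 (adjusted p = 0.943).

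Lats2, which is itself a target of YAP, had 0 UMIs in 1C embryos 1 and 2 and 8CB embryo 6, and 21 of the 28 UMIs of the 1C embryos came from embryo 3, at 59.7 CPM. In 8CB it ranged from 0 to 23.3 CPM (median 17.5), in 2CB from 13.8 to 28.8 (20.5) and in 4CB from 11.5 to 35.0 (22.8). It did not pass the filter on low counts. In the fit with no filter its log2 fold change across the pools was 0.31 (-0.57 to 1.18, adjusted p = 0.862). The share of Lats2 in the UMIs of both kinases had a median of 27.2% in 1C and 8CB and 50.4% in 2CB and 4CB, with 1 to 98 UMIs of the kinases in an embryo.

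Amot encodes angiomotin, which at cell junctions binds Merlin and helps LATS to act on YAP. It had 33.5 to 193.2 CPM in 1C (median 75.5), 100.3 to 164.8 in 8CB (median 120.6), 35.1 to 176.8 in 2CB (median 79.8) and 31.8 to 140.2 in 4CB (median 90.0). The 8CB embryos varied least, and their range lay inside that of 1C. Its log2 fold change across the pools was -0.32 (-0.90 to 0.26, adjusted p = 0.362).

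Amotl2 encodes a related protein of the same junctions and is also a target of YAP in other cells. It had 26.9 to 100.5 CPM in 1C (median 62.0), 26.7 to 163.4 in 8CB (median 99.3), 90.9 to 207.9 in 2CB (median 149.0) and 95.96 to 476.8 in 4CB (median 145.5). Of the 12 1C and 8CB embryos, 7 lay below all 2CB and 4CB embryos, and 4 of the 12 2CB and 4CB embryos lay above all 1C and 8CB embryos. Its difference across the pools was 1.20 on the log2 scale (standard error 0.30, 95% interval 0.59 to 1.82, adjusted p = 0.00147) and it passed in each of the 24 fits without 1 embryo, between 0.98 and 1.34. The 4CB embryo 5, with 476.8 CPM of Amotl2, also had the highest summed cumulus marker level of the 24 embryos, 174.8 CPM, the next being 88.2 CPM, and without it the difference was 0.98. Among the UMIs of Amot, Amotl1 and Amotl2 together, Amotl2 held a median of 46.7% in 1C and 8CB and 62.0% in 2CB and 4CB. Amotl1, named here after its values were seen, had 15 UMIs in all.

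Nf2, which acts upstream of the LATS kinases, was the 1 member that passed as lower in 2CB and 4CB in the edgeR fit. It had 73.9 to 149.7 CPM in 1C (median 87.9), 53.3 to 200.7 in 8CB (median 96.8), 38.9 to 86.4 in 2CB (median 72.5) and 20.03 to 65.3 in 4CB (median 59.3). Of the 12 1C and 8CB embryos, 7 lay above all 2CB and 4CB embryos, and 3 of the 12 2CB and 4CB embryos lay below all 1C and 8CB embryos. Its difference across the pools was -0.76 on the log2 scale (standard error 0.24, 95% interval -1.25 to -0.28, adjusted p = 0.00892), and it passed in each of the 24 fits without 1 embryo, between -0.86 and -0.69.

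No member was separated fully by the pools: in 0 of the 10 did all 2CB and 4CB embryos lie on one side of all 1C and 8CB embryos, beside 5.69% of all genes tested. Within a pool no member passed. For 8CB against 1C, edgeR called 0.0% of all genes, while 550 genes and 0 members had an unadjusted p below 0.05. DESeq2 called 43 genes, none of them a member. For 4CB against 2CB, edgeR called 0.0337% of all genes, which is 2 genes and 0 members, while 263 genes and 0 members had an unadjusted p below 0.05. DESeq2 called 10 genes, none of them one of the 8 members that it gave an adjusted p (Lats1 had none). The largest log2 fold change of a member within a pool was that of Lats1 for 4CB against 2CB, 0.79 (-0.28 to 1.86). For 8CB against 1C, Yap1 was at -0.34 (-1.25 to 0.57) and Amotl2 at 0.52 (-0.39 to 1.43), and for 4CB against 2CB Amotl2 was at 0.46 (-0.35 to 1.27) and Nf2 at -0.42 (-1.10 to 0.26). These 5 intervals all hold 0 and all reach past 1 log2 unit on one side, so a missed threshold does not show that the stages are alike. A test of whether the difference between 4CB and 2CB differed from that between 8CB and 1C called 0 members, the lowest adjusted p being 0.668.

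**Figure D3:**
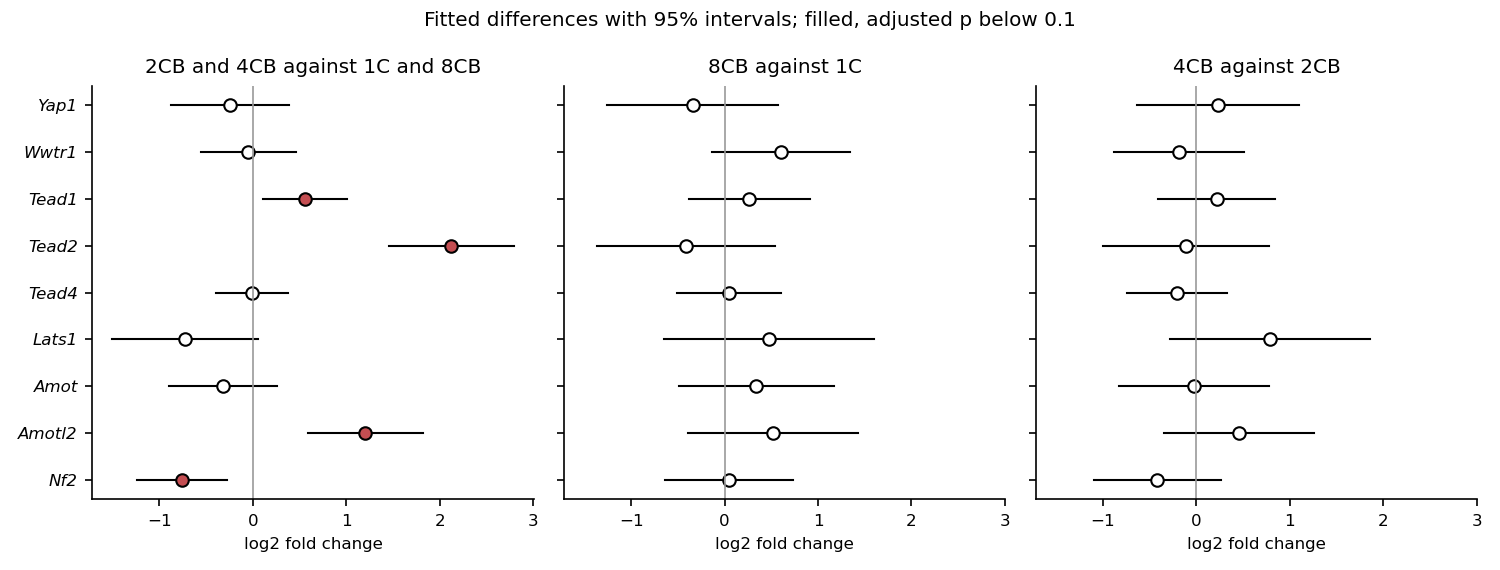
Log2 fold changes of the 9 tested genes (points) with 95% intervals (lines) across the pools, for 8CB against 1C and for 4CB against 2CB. Filled points have an edgeR adjusted p below 0.1. Only Tead1, Tead2, Amotl2 and Nf2 are filled, all in the comparison across pools.

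The rest of the pathway was read from 7 lists with 106 genes in the table, of which 72 were tested. Across the pools, 31 of the 72 passed as higher in 2CB and 4CB and 10 as lower, beside 31.3% and 24% of all genes, with a median log2 fold change of 0.35. Among the LATS inhibitors of the LIM family, 3 of 4 tested genes were higher and 0 lower, among the polarity and actomyosin genes 14 of 19 were higher and 1 lower, in the list of the kinase cassette 2 of 10 were higher and 3 lower, and in that of the STRIPAK phosphatase complex 3 of 12 were higher and 4 lower. The 34 genes that were not tested had too few UMIs, and 2 of them had 0 UMIs. With no filter on low counts, 38 of 104 genes were higher and 8 lower, beside 14.2% and 9.61% of all 23171 genes in that fit. Of the genes not tested before, 4 of 14 in the kinase cassette, 3 of 4 TEAD cofactors, 1 of 3 STRIPAK genes and 3 of 10 listed YAP and TEAD targets passed as higher. In the LIM family 0 of 2 and among the polarity and actomyosin genes 0 of 3 did so, and 0 passed as lower in any of these lists.

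Some LIM proteins of this list, among them those of Limd1 and Trip6, hold LATS at junctions under tension. Of the 6 genes of the list, 2 were not tested. Zyx, which encodes zyxin, averaged 31.1 ± 26.8 CPM in 1C and 13.1 ± 9.97 in 8CB, against 190.8 ± 35.7 in 2CB and 219.7 ± 89.9 in 4CB (± SD over 6 embryos). It was higher by 3.34 on the log2 scale (adjusted p = 1.42e-09). Limd1 (2.21, adjusted p = 1.68e-04) and Lpp (1.92, adjusted p = 2.92e-05) were higher as well, and Trip6, named after its values were seen, was at -0.09 (adjusted p = 0.906).

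Of the polarity and actomyosin genes, Msn, encoding the membrane-cytoskeleton linker moesin, averaged 23.1 ± 27.8 CPM in 1C and 18.1 ± 14.6 in 8CB, against 484.9 ± 156.4 in 2CB and 593.3 ± 322.3 in 4CB (± SD over 6 embryos). It was higher by 4.78 on the log2 scale (adjusted p = 3.20e-10). Myh9, encoding a non-muscle myosin heavy chain, was higher by 2.29 (adjusted p = 4.15e-08), Llgl2, a polarity gene, by 2.22 (adjusted p = 1.76e-06), and Ezr, encoding ezrin of the apical surface, by 1.93 (adjusted p = 6.57e-05). Ezr averaged 83.9 ± 78.9 CPM in 1C and 12.7 ± 11.9 CPM in 8CB (SD, n = 6 each). The log2 fold change of Ezr for 8CB against 1C was -2.35, which did not pass in edgeR (adjusted p = 0.184) but passed with DESeq2 (adjusted p = 0.0405) and in edgeR with no filter on low counts (adjusted p = 0.00344).

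In the kinase cassette and its scaffolds, Wwc1, encoding KIBRA, a partner of Merlin, was higher by 2.42 (adjusted p = 1.57e-04). Taok2, encoding a kinase upstream of the cassette, was higher by 0.91 (adjusted p = 0.0119) and its relative Taok1 was lower (-0.97, adjusted p = 2.70e-04). Mob1b, encoding a LATS activator, was at -0.70 (adjusted p = 0.0852), and Stk4, which encodes the MST1 kinase, was at -0.60 (adjusted p = 0.0105), both past the threshold as lower. Stk4 is named after its values were seen.

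STRIPAK is the complex that brings the phosphatase PP2A to the MST kinases. Sike1 was higher by 1.29 (adjusted p = 0.00117) and Ppp2r1a, a PP2A scaffold, by 0.74 (adjusted p = 0.00782), whereas Stk24 (-0.87, adjusted p = 0.00813) and Ppp2cb, a catalytic subunit of PP2A (-0.87, adjusted p = 0.0700), were lower. Of the genes that hold YAP in the cytoplasm or mark it for turnover, 3 of 14 were higher and 1 lower, both below the shares of all genes: the 14-3-3 gene Ywhah (0.96, adjusted p = 0.0294), Btrc, encoding a ubiquitin ligase subunit (0.62, adjusted p = 0.00731), the 14-3-3 gene Ywhab (0.45, adjusted p = 0.00610) and the kinase gene Csnk1e (-0.61, adjusted p = 0.00463). Of 6 TEAD cofactors tested, Vgll4, which competes with YAP for TEAD, passed as higher (0.96, adjusted p = 0.0346).

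**Figure D4:**
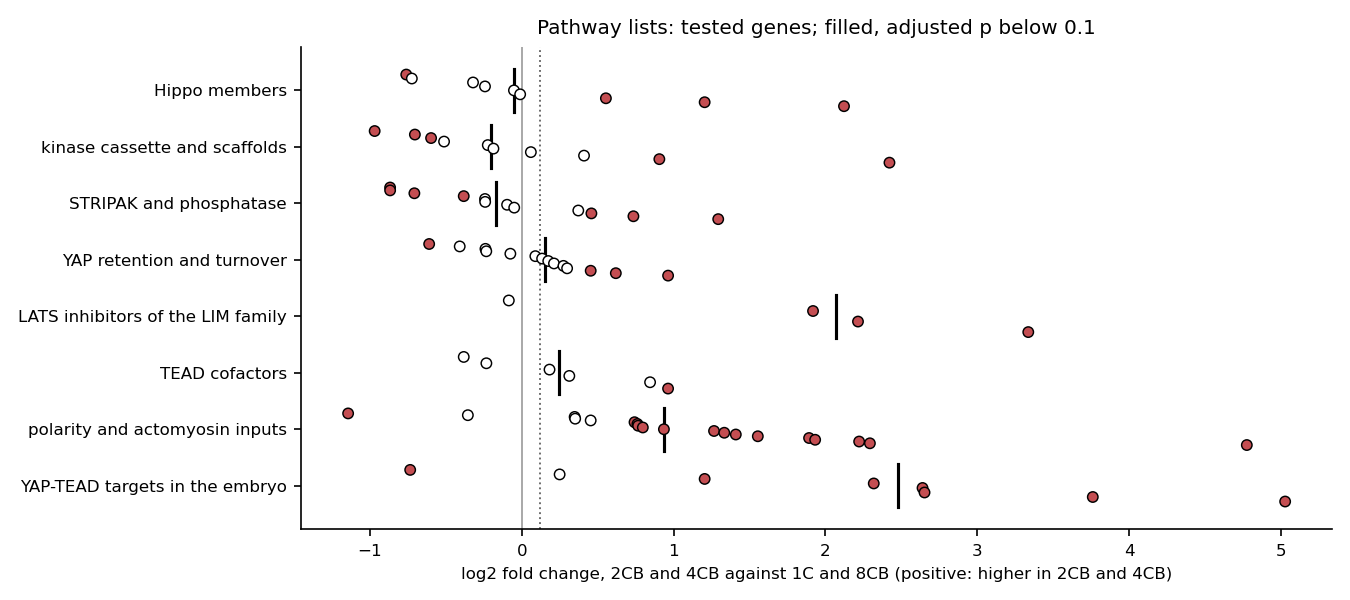
Log2 fold changes across the pools (positive, higher in 2CB and 4CB) of the tested genes of each list. Filled points have an edgeR adjusted p below 0.1, black bars are list medians and the dotted line is the median of all genes, 0.12. The LIM family, the polarity and actomyosin list and the YAP-TEAD targets lie mostly to the right, with medians of 2.07, 0.94 and 2.48.

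Of 8 tested genes listed as YAP and TEAD targets in the embryo or elsewhere, Amotl2 included, 6 were higher in 2CB and 4CB and 1 lower. These stand beside 31.3% and 24% of all genes. A further 10 listed genes in the table were not tested. Cdx2, Gata3, Tfap2c, Eomes, Krt8 and Krt18 are also among the trophectoderm markers below, so the counts of both lists share these genes. Krt18, encoding a keratin of the trophectoderm, was higher by 5.03 (adjusted p = 3.80e-11), Eomes, encoding a trophoblast transcription factor, by 3.76 (adjusted p = 5.80e-08), Gata3 by 2.65 (adjusted p = 1.51e-09) and Krt8 by 2.64 (adjusted p = 8.40e-06). Tfap2c, encoding the trophoblast factor AP-2γ, was lower (-0.74, adjusted p = 0.0104), and Birc5 did not pass (0.25, adjusted p = 0.236). Tfap2c and Birc5 are named after their values were seen. Among the coactivator and TEAD members, Tead1 and Tead2 passed as higher in the same comparison and Tead4, Yap1 and Wwtr1 did not pass, as given above. Whether their products acted on the listed targets in these embryos was not tested.

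Trophectoderm and primitive endoderm markers divided by pool, whereas the summed levels of epiblast and ICM markers and of cumulus markers overlapped. Their counts below stand beside 31.3% of all genes higher and 24% lower. The summed level of 18 trophectoderm markers, all detected, ran from 1197 to 2122 CPM in 1C and 8CB and from 3986 to 8095 CPM in 2CB and 4CB, and 13 of 17 tested were higher and 2 lower. The 12 primitive endoderm markers, all detected, summed to 846 to 1572 CPM and 1584 to 3796 CPM, with 7 of 9 higher and 1 lower. The 12 epiblast and ICM markers, all detected, summed to 1677 to 4291 CPM and 1364 to 3616 CPM, with 3 of 8 higher and 5 lower. Of 7 cumulus cell markers, Has2, Ptgs2 and Foxl2 were at 0 in every embryo, and the 7 summed to at most 59.7 CPM in 1C and 8CB and 174.8 CPM in 2CB and 4CB. Star, the 1 cumulus marker tested, passed as higher (1.24), and of the 6 not tested Amhr2 passed as lower with no filter on low counts; both are named after their values were seen. The part of the make-up of the embryos in the differences of Tead1, Tead2, Amotl2 and Nf2 was not tested.

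Whether a member varied with the trophectoderm gene Cdx2 was asked within each pool, over 12 embryos and on log2 CPM, to keep the pools apart. Levels were not centred by kind of embryo, so a difference between the 2 kinds in a pool also enters these relations. Of the 20 relations, 1 had an unadjusted p below 0.05 and none passed after Benjamini-Hochberg adjustment. That one was Lats1 in 1C and 8CB (Pearson's r = -0.58, p = 0.0487; Spearman's rho = -0.57, p = 0.0544; permutation tests with 100000 resamples, two-sided), with adjusted p-values of 0.524 and 0.568. In that pool Lats1 had medians of 20.9 CPM in 1C and 36.8 CPM in 8CB, and Cdx2 had medians of 29.9 CPM and 9.998 CPM. These medians differ in opposite directions, which is also the direction of a negative r. The part of the kinds of embryo in this relation was not tested. Without the 2 embryos farthest from the median of Cdx2, r of Lats1 was -0.65. In 2CB and 4CB, the same omission moved r of Yap1 from -0.46 (permutation p = 0.131, adjusted p = 0.524; rho = -0.47, p = 0.128, adjusted p = 0.568) to -0.63. It moved that of Nf2 from 0.31 (permutation p = 0.329, adjusted p = 0.836; rho = 0.22, p = 0.500, adjusted p = 0.774) to 0.63. Other members went the other way: Amot from -0.55 (permutation p = 0.0608, adjusted p = 0.524) to -0.23, Amotl2 from 0.37 to -0.15 and Lats2 from 0.26 to -0.22. No p-value was taken after the omission. Spearman's rho of Yap1 with the total UMIs of the embryos was 0.69 in 2CB and 4CB and 0.57 in 1C and 8CB, without a test. For Tead2 r was -0.04 in 1C and 8CB (permutation p = 0.923, adjusted p = 0.978) and 0.21 in 2CB and 4CB (permutation p = 0.523, adjusted p = 0.836), and Spearman's rho was 0.08 (p = 0.818, adjusted p = 0.845) and 0.15 (p = 0.659, adjusted p = 0.824). Without the 2 farthest embryos r was -0.17 and 0.34.

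In GRCm38 as the table gives it, the genes lie on chromosome 9 from 7931999 to 8004596 (Yap1), chromosome 3 from 57455649 to 57575910 (Wwtr1), chromosome 7 from 112679318 to 112906807 (Tead1) and from 45215753 to 45233644 (Tead2), chromosome 6 from 128224288 to 128300823 (Tead4), chromosome 10 from 7681214 to 7716460 (Lats1), chromosome 14 from 57642077 to 57758388 (Lats2), chromosome X from 145446425 to 145505181 (Amot), chromosome 9 from 102716672 to 102733418 (Amotl2) and chromosome 11 from 4765845 to 4849536 (Nf2). The counts are over all exons of a gene, 5′ and 3′ untranslated exons included. The longest exact run shared by annotated transcripts of paralogous members was 23 bases, between Tead2 and Tead4, and 14 to 22 bases in the other pairs. Exons of Tead2 overlap 13 bases of Cd37 on the opposite strand, which had 34 UMIs in all embryos, and exons of Lats2 overlap 332 bases of Xpo4 on the same strand, which had 388 UMIs, so that a part of the Lats2 counts is uncertain.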

How the data were processed

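Single-embryo RNA-seq was taken from 24 embryos, 6 each of 1C, 2CB, 4CB and 8CB. Per the labels, the libraries are 2 samples, a pool of 1C with 8CB and a pool of 2CB with 4CB; embryos were the replicates. The authors sequenced CEL-Seq2 libraries, aligned the reads to GRCm38 with HISAT2 2.2.6 and obtained UMI counts per gene with HTSeq 0.6.1, with 1 consensus read for each group of duplicates. The deposited counts are whole numbers without normalization, and 24 further columns of the table were not used. The annotation release and the strand setting are not given in the sources used here. Gene symbols were matched by Ensembl identifier to GENCODE M21 for 51633 of 52366 genes; Lats2 has other ends there, and the other 9 members have the same ends.

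Counts were filtered with filterByExpr (5940 genes kept), normalized with TMM (factors 0.928 to 1.07) and tested with the quasi-likelihood test of edgeR 4.0.16 in R 4.3.3, with 1 mean per stage over all 24 embryos and Benjamini-Hochberg adjustment over all genes tested, at an adjusted p below 0.1. Standard errors were derived from the F statistic. Log2 CPM used a prior count of 2. DESeq2 1.42.0 was an alternative, permutation tests used SciPy 1.17.1, and the fits were tested on simulated data. The members and lists were chosen with earlier results of these data known. All 10 members are named, and of each other list up to 4 genes with the largest log2 fold change among those called, besides the genes said to be named after their values were seen.

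Other settings were DESeq2, its size factors in edgeR, no filter, a filter of 5 UMIs in 12 embryos, thinning of every embryo to 70941 UMIs, a threshold of 0.05, a replicate block, fits on 1 pool of 12 embryos, and leaving out 1 embryo at a time. Thinning on the genes that passed at full depth and leaving out 1C embryos 4 and 5 were added after the data were seen. Replicate numbers in the column names were not taken as pairs: deviations from stage means of embryos that share a number correlated with a mean of -0.016 over 36 pairs (-0.25 to 0.22). Intervals for 0 UMIs cover counting error only.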

Additional observations from a re-analysis of the deposited data

Results flagged for a closer look

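In 4 of 40 groups of 6 embryos (10 genes in 4 stages), 1 embryo lay apart from the others by Dixon's gap test; chance flags about 1 in 20 groups. Tead1 had 501.9 CPM (74 UMIs) in 4CB embryo 2, against 373.5 CPM in the next embryo, and the call of Tead1 was lost without this embryo. Lats2 had 59.7 CPM (21 UMIs) in 1C embryo 3, against 16.4 CPM in the next. Lats2 had 0 CPM (0 UMIs) in 8CB embryo 6, where 3 UMIs would be 43.0 CPM, above the next lowest embryo at 14.9 CPM, so that the gap was not detectable at this depth. Amotl2 had 476.8 CPM (60 UMIs) in 4CB embryo 5, against 230.5 CPM in the next, and Amotl2 passed in the comparison of 2CB and 4CB with 1C and 8CB without it.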

How the results depend on the processing

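Between 3 and 5 members passed in the comparison of 2CB and 4CB with 1C and 8CB, and 3 to 5 without 1 embryo; the F test gave 2 to 4 (3 to 4 without 1 embryo), and 0 members passed within a pool under any setting run. Of all genes, 23.8% (no filter, 3 of 10 members) to 58.2% (thinning, 3 of 4 members) passed in the former and 22.4% to 51.4% in the F test, and 53.0% to 55.1% and 44.6% to 48% without 1 embryo. Across the pools Tead2, Amotl2 and, where it was tested, Nf2 passed under each, with adjusted p-values up to 2.20e-05, 0.00907 and 0.0496. The call of Tead1 was lost as described above; Lats1 was also gained with 5 UMIs in 12 embryos (-0.76, adjusted p = 0.0978). Of the other pathway genes 25 of 43 tested passed after thinning, beside the 58.2% of all genes, against 41 of 72, since fewer genes were tested, and 36 to 46 elsewhere. With the replicate block, 4 members passed across the pools, 2 in the F test, where Nf2 was lost, and 0 within each pool, and 39 other pathway genes passed; these counts do not speak of pairs, since the embryos share only a number.

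Log2 fold changes of uncalled members turned sign as follows. Across the pools, Yap1 was at 0.012 and Wwtr1 at 0.020 after thinning on the genes that passed at full depth, Wwtr1 at 0.025 without 1C embryos 4 and 5, and Tead4 at 0.043 with DESeq2 and 0.031 with its size factors (-0.12 to 0.021 without 1 embryo). For 8CB against 1C, Tead1 was at -0.020 and Tead2 at 0.69 without 1C embryos 4 and 5, and Tead4 at -0.054 and -0.043 after thinning; without 1 embryo Tead2 ran from -0.70 to 0.29, Tead4 from -0.046 to 0.18 and Nf2 from -0.16 to 0.23. For 4CB against 2CB, Yap1 was at -0.47, Nf2 at 0.12 and Tead4 at 0.0083 after thinning, and Amot at 0.020 with DESeq2 and 0.021 with its size factors; without 1 embryo Yap1 ran from -0.17 to 0.40, Wwtr1 from -0.31 to 0.039 and Amot from -0.20 to 0.31. The cause was not tested. Low counts of Lats1, Lats2 and the shallow 8CB embryo 6 limit what could be seen.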
